A study of Caenorhabditis elegans with 2 samples.

Results

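The histone genes of Caenorhabditis elegans are described here by their position relative to peaks of the chromodomain protein CEC-7. The members were chosen by name from the RefSeq gene table of assembly WBcel235: every protein-coding gene called his-, hil- or htz-1. There were 81 of them among 19971 protein-coding genes of the nuclear chromosomes, and all 81 were kept. A gene was called bound when a peak of the deposited list overlapped its body or the 500 bp on either side. The peak list came from chromatin immunoprecipitation followed by sequencing (ChIP-seq) of whole hermaphrodites that carry fem-2(b245) III, with a rabbit polyclonal antibody against CEC-7 (Y37D8A.11). The worms were grown at 20 degrees Celsius, and the stage label is young adult with a germline, while the growth protocol describes gravid adults. The ChIP library and a library of input DNA from the same strain, stage and sex both carry the number 2 as replicate, and only the ChIP library has a peak list here. Every value below therefore rests on 1 library without a replicate, depth is unknown, and no other genotype or antibody was compared.

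Histones package DNA into nucleosomes. The core histones H2A, H2B, H3 and H4 form the particle around which DNA is wound, and linker histone H1 binds where the DNA enters and leaves it. Most core histone genes of the worm are intron-poor genes in groups of neighbouring copies, expressed when DNA is replicated. Variant histones such as H3.3 and H2A.Z come from separate genes and can be placed into chromatin outside replication. A chromodomain is a small fold that often recognises methyl marks on the tail of H3.

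CEC-7 peaks lay at few histone genes, in a number close to that at other genes as short and on the same chromosomes. Of the 81 genes, 4 (4.94%) were bound, against 17.6% of the 19890 other protein-coding genes and 9.86% of those shorter than 1000 bp. A single gene, his-37, had any base of its body inside a peak, 1.23% of the 81, against 15.2% of the other genes and 3.66% of those of the same chromosome and length class. The bound genes were 3 H2A genes, his-68, his-61 and his-47, and the H4 gene his-37. No gene for H1, H2A.Z, H2B, H3 or H3.3 was bound. Histone genes are short, and gene length and chromosome both went with the share bound among the other genes. Set beside other genes of the same chromosome and length class, the share was 5.36%, which on 81 genes comes to 4.34. The share without these adjustments is therefore no result about histone genes as such.

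The few bound genes were spread over 3 chromosomes. Chromosome I had 1 of 4 histone genes bound, against 29.6% of its other genes and 17.9% of those shorter than 1000 bp. Chromosome II, with 14 histone genes, had 0 bound, against 21.4% of its other genes and 12.1% of the short ones. Of these 14, 13 lie in 1 group, so they are not 14 separate observations. Chromosome III had 0 of 3 bound, against 37.2% and 26.0%. Chromosome IV had 2 of 25 bound, or 8.00%, against 16.2% of its other genes and 6.63% of the short ones. Chromosome V, with 30 members the chromosome richest in histone genes, had 1 bound, or 3.33%, against 8.06% and 3.84%. On X, 0 of 5 were bound, where 0.183% of the other genes and 0.00% of the short ones were. Weighted to the chromosomes of the 81 histone genes, the share of other genes bound was 14.5%, and that of short genes 7.41%.

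**Figure D1:**
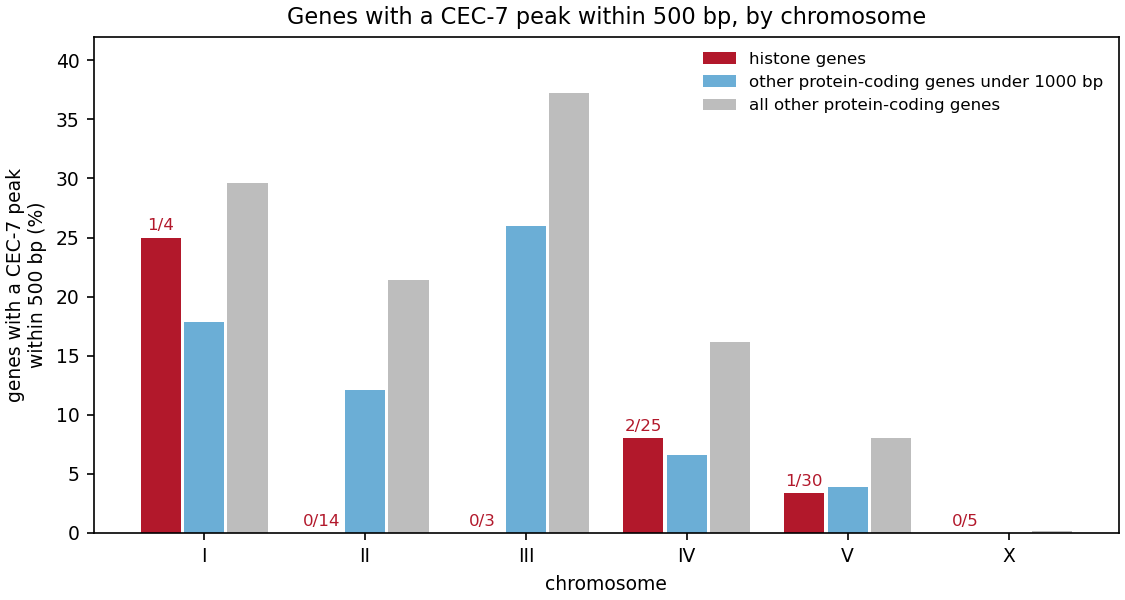
Share of genes with a CEC-7 peak within 500 bp (y axis, %) on each chromosome (x axis) for histone genes, other protein-coding genes shorter than 1000 bp and all other protein-coding genes; the fractions above the first bar give bound over all histone genes. On II and III no histone gene was bound. There, 21.4% and 37.2% of all other genes were, and 12.1% and 26.0% of the short ones. II has 14 histone genes, 13 of them in 1 group, and III has 3, so few sites stand behind these bars. On IV and V the histone bars lay near those of short genes.

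Histone genes differ from other genes in length. The histone gene models had a median length of 384 bp, against 2015 bp for the other genes, and 64 of 81 were shorter than 500 bp. Among other genes, weighted to the same chromosomes, the share bound was 4.05% below 500 bp, 8.89% from 500 to under 1000 bp, 10.7% from 1000 to under 2000 bp, 17.8% from 2000 to under 5000 bp and 26.3% from 5000 bp upwards. Among the 64 histone genes below 500 bp, 3 (4.69%) were bound, and among the 9 from 500 to under 1000 bp, 1 (11.1%) was. None of the 8 longer ones was bound, namely 6 from 1000 to under 2000 bp, 1 from 2000 to under 5000 bp and 1 above that. The models of 64 of the 65 core histone genes have a length divisible by 3, against 35.2% of the other genes. In H3, all 15 models have the same length of 411 bp, and 15 of the 16 H4 models have 312 bp. Some models are longer than most of their class, such as his-57 at 1314 bp, his-41 at 729 bp and his-35 at 630 bp.

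**Figure D2:**
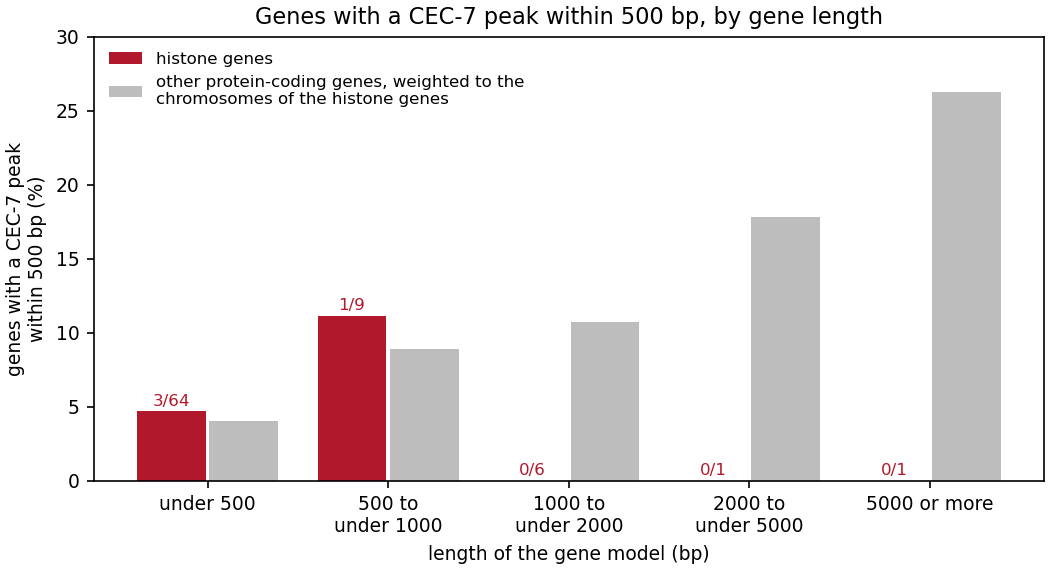
Share of genes with a CEC-7 peak within 500 bp (y axis, %) by length of the gene model (x axis, bp) for histone genes, with bound over all above the bar, and for other protein-coding genes weighted to the chromosomes of the histone genes. The share of other genes rose with length, and below 500 bp it was 4.05%, beside 4.69% of histone genes.

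All 4 bound genes encode core histones. H2A and H2B form the dimers at the outer faces of the nucleosome, and H3 and H4 its central tetramer. Of the 17 H2A genes 3 were bound, and of the 17 H2B genes 0. Of other genes below 500 bp, weighted to the same chromosomes, 4.05% were, so counts this small show no difference between classes. The H2A genes his-61 and his-47 lay 400 and 485 bp from a peak. The H2B genes beside them, his-62 and his-48, lay 1111 and 1174 bp from the same peaks. Of the 15 H3 genes 0 were bound, and of the 16 H4 genes 1. In all, 4 of the 65 core genes (6.15%) were bound, where other genes of the same chromosomes and length classes gave 3.91%. One further member, his-73, is a gene model of 141 bp on chromosome II that was put in no class. It was unbound, with the nearest peak 1766 bp away.

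The 3 bound H2A genes each stand at the edge of a histone group, and their peaks lay over the neighbouring non-histone gene. The strongest peak was that of his-68 on chromosome I, at I 9990012 to 9992802, with a score of 211.32. The score is the authors' own value for each peak, used here only to rank peaks within this list, in which it had a median of 127 and ran from 50.02 to 1951.83 over 2767 peaks. This peak ranked 820 of 2767 and began 497 bp beyond the his-68 model. All of its 2791 bp lay within alg-5, an Argonaute gene. The neighbouring H4 gene his-67 was 1249 bp from it and unbound.

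On chromosome IV, his-61 lay 400 bp from a peak at IV 7480472 to 7485434, with a score of 118.07 and rank 1460. Of this peak's 4963 bp, 4856 lay within rod-1, which encodes a kinetochore protein of the spindle checkpoint. Also on IV, his-47 lay 485 bp from a peak at IV 11321144 to 11323571, with a score of 69.79 and rank 2204. All 2428 bp of it lay within edg-1. Neither peak reached a base of a histone gene.

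The H4 gene his-37 on chromosome V was the exception, by 22 bp of its 503 bp model. Its peak, V 9547586 to 9548800, had a score of 53.91, rank 2624 of 2767, near the lowest score in the list. Of its 1215 bp, 1199 lay within the adjoining gene nstp-10, of the nucleotide sugar transporter family. The positions of genes and peaks come from builds taken to differ by about 100 bp at most, a bound that was not checked here and that exceeds this overlap, so whether the peak touches his-37 itself cannot be told. Of the 4 scores, only that of his-68 exceeded the median of 127, and the peaks that were the best of at least 1 other bound gene had a median score of 149.5.

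The threshold of 500 bp ran close to the values. Just inside it were his-61 at 400 bp, his-47 at 485 bp and his-68 at 497 bp. Just outside were the H3 gene his-45 at 632 bp, the H2A.Z gene htz-1 at 634 bp and the H3 gene his-55 at 1076 bp. The next unbound core genes were his-62 at 1111 bp, his-48 at 1174 bp and his-67. The core genes farthest from a peak were 5 of 1 group on V, his-54 at 99202 bp, his-52 at 101744 bp, his-51 at 102408 bp, his-49 at 104226 bp and his-50 at 104875 bp. The calls of his-47 and his-68 therefore rest on the bound taken for the difference between builds. With a margin of 400 bp, 2 genes were bound, and with 1000 bp, 6. Within 2000 bp of a peak were 16 histone genes, or 19.8%, against 23.0% of the other genes. Within 5000 bp were 21, or 25.9%, against 30.1%. These shares of other genes are matched neither by chromosome nor by length, so they give no direction for histone genes as such.

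The linker and variant genes were all unbound, 0 of 15, where other genes of the same chromosomes and length classes gave 11.6%, or 1.74 genes. For H1, whose genes are hil-1 to hil-8 and his-24, the distance to the nearest peak had a median of 52166 bp. The H1 genes nearest to a peak were hil-8 on I at 6182 bp and hil-7 on IV at 8339 bp. Next came hil-5 on I at 13181 bp, hil-2 on IV at 42948 bp and hil-1 on V at 52166 bp. The other two on V, hil-4 and hil-6, lay 61638 and 97239 bp from a peak. On X, hil-3 lay 797670 bp and his-24, the gene of the linker histone H1.1, 1315653 bp away. The median other gene, of any length, lay 4915 bp from a peak on I, 15630.5 bp on IV, 38520 bp on V and about 1404810 bp on X. Both H1 genes of X were thus nearer to a peak than the median gene there.

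The gene of H2A.Z, htz-1, was the nearest miss among the variants. Its closest peak, IV 4444144 to 4445582 with a score of 67.26 and rank 2274, ended 634 bp before it and lay wholly within wapl-1, which encodes a cohesin release factor. On its other side no peak was listed for 207594 bp. Of the H3.3 genes, his-69 and his-70 lie side by side on III, 1952 and 3307 bp from a peak over the RecQ helicase gene rcq-5 (III 4055029 to 4056408, score 86.77). The other 3 lay 9744 bp (his-72 on III), 42203 bp (his-74 on V) and 619883 bp (his-71 on X) from a peak. The median other gene lay 2754 bp from a peak on III, 38520 bp on V and about 1404810 bp on X. For other genes shorter than 1000 bp the medians were 3541, 50163 and about 1336600 bp. Copies of core histone genes are nearly identical, and the sources used here do not say how reads that match several copies were placed. The part of this in the lack of peaks was not tested.

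**Figure D3:**
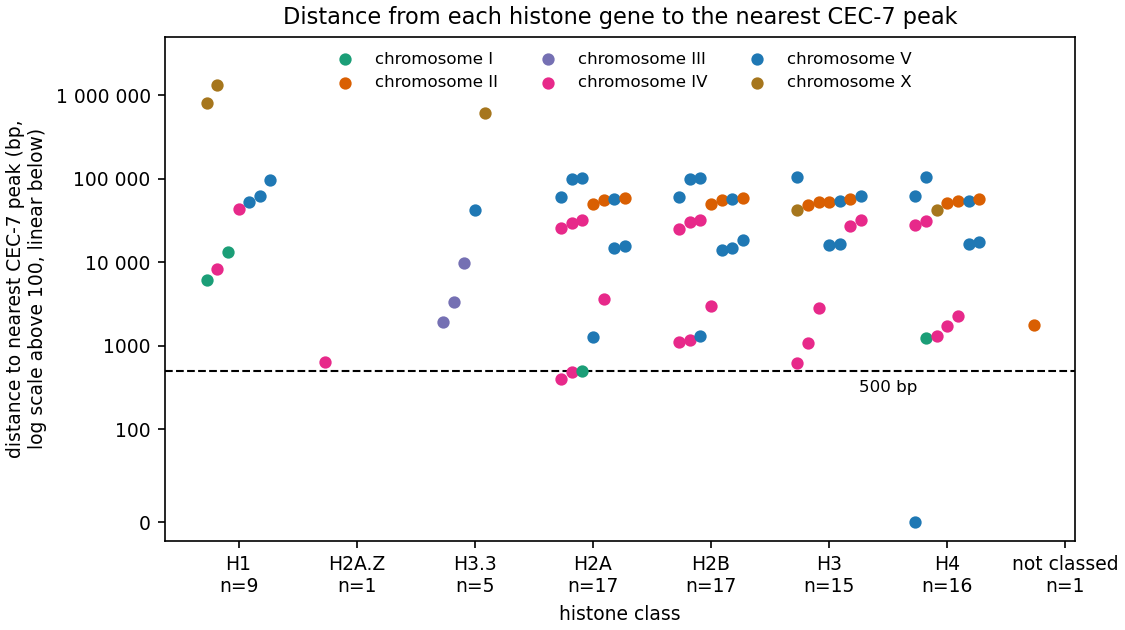
Distance in bp from each of the 81 histone genes to the nearest CEC-7 peak (y axis, logarithmic above 100 bp and linear below) by histone class (x axis), coloured by chromosome; each point is 1 gene and the dashed line is the 500 bp margin. The 3 H2A genes at 400, 485 and 497 bp and the H4 gene his-37 at 0 lie below the line, and htz-1 lies just above it at 634 bp.

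Neighbouring histone genes can share a peak, so they were also counted by locus, joining histone genes with at most 5 kb between them. This gave 28 loci, of which 14 were groups of 2 to 13 genes with 67 genes in all and 14 were lone genes. Of the 28 loci, 4 (14.3%) had a bound member, all in groups. Other genes of the same chromosomes, with bodies in the same length class as the span of each locus and the same margin of 500 bp, gave 15.5%, or 4.35 loci. A peak base between the first and the last histone gene of a locus was found at 1 of 28, the 22 bp at his-37. Without the margin, such genes gave 13.5%, or 3.78 loci. For the 14 groups alone the count was 1, where such genes gave 18.0%, or 2.52 groups.

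The largest group, 13 genes from his-16 to his-42 on chromosome II, held no peak over its 10938 bp. It lay in a stretch of 128959 bp without a peak. The median gap between peaks on II was 3754 bp, 10% of gaps exceeded 60548 bp and the longest was 559045 bp. Long gaps hold more genes than short ones, so the median gap is no background for a gene. The median other gene of II lay 13859.5 bp from a peak, and the median one shorter than 1000 bp lay 21304 bp away. Within 50 kb of this group, 1 of 12 other genes was bound. On V, the groups of 6 genes (his-50 to his-53) and 8 genes (his-28 to his-18) lay in the same stretch of 338287 bp without a peak. The median gap on V was 23343 bp, 10% of gaps exceeded 181806 bp and the longest was 1000668 bp. The median other gene of V lay 38520 bp from a peak, and the median one shorter than 1000 bp lay 50163 bp away. Within 50 kb, 0 of 16 other genes near the first and 1 of 17 near the second were bound. The group of his-1 to his-4, also on V, lay 14171 bp from a peak on one side and 363030 bp on the other.

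Other groups had peaks close by. On IV, the groups his-47 to his-45 and his-55 to his-57 flank a peak of 7597 bp at IV 11329181 to 11336777. Its score of 664.65 ranked 110 of 2767. It covered all 3411 bp of sart-3, a gene for a splicing factor, and 3698 bp of F54E12.2, and ended 1076 bp before his-55. A second, weaker peak over leo-1, of the PAF1 transcription elongation complex, lay between it and his-45, at IV 11327630 to 11329089 with a score of 56.70, and began 632 bp beyond that gene. The first of these groups thus had a peak 485 bp away on one side, another 632 bp away on the other and none inside. On V, the group of his-35, his-41 and his-37, whose other end holds the weak peak at his-37, also had a peak over mdf-1, a spindle checkpoint gene, 1285 bp from his-35 (V 9541674 to 9543374, score 132.30, rank 1319).

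**Figure D4:**
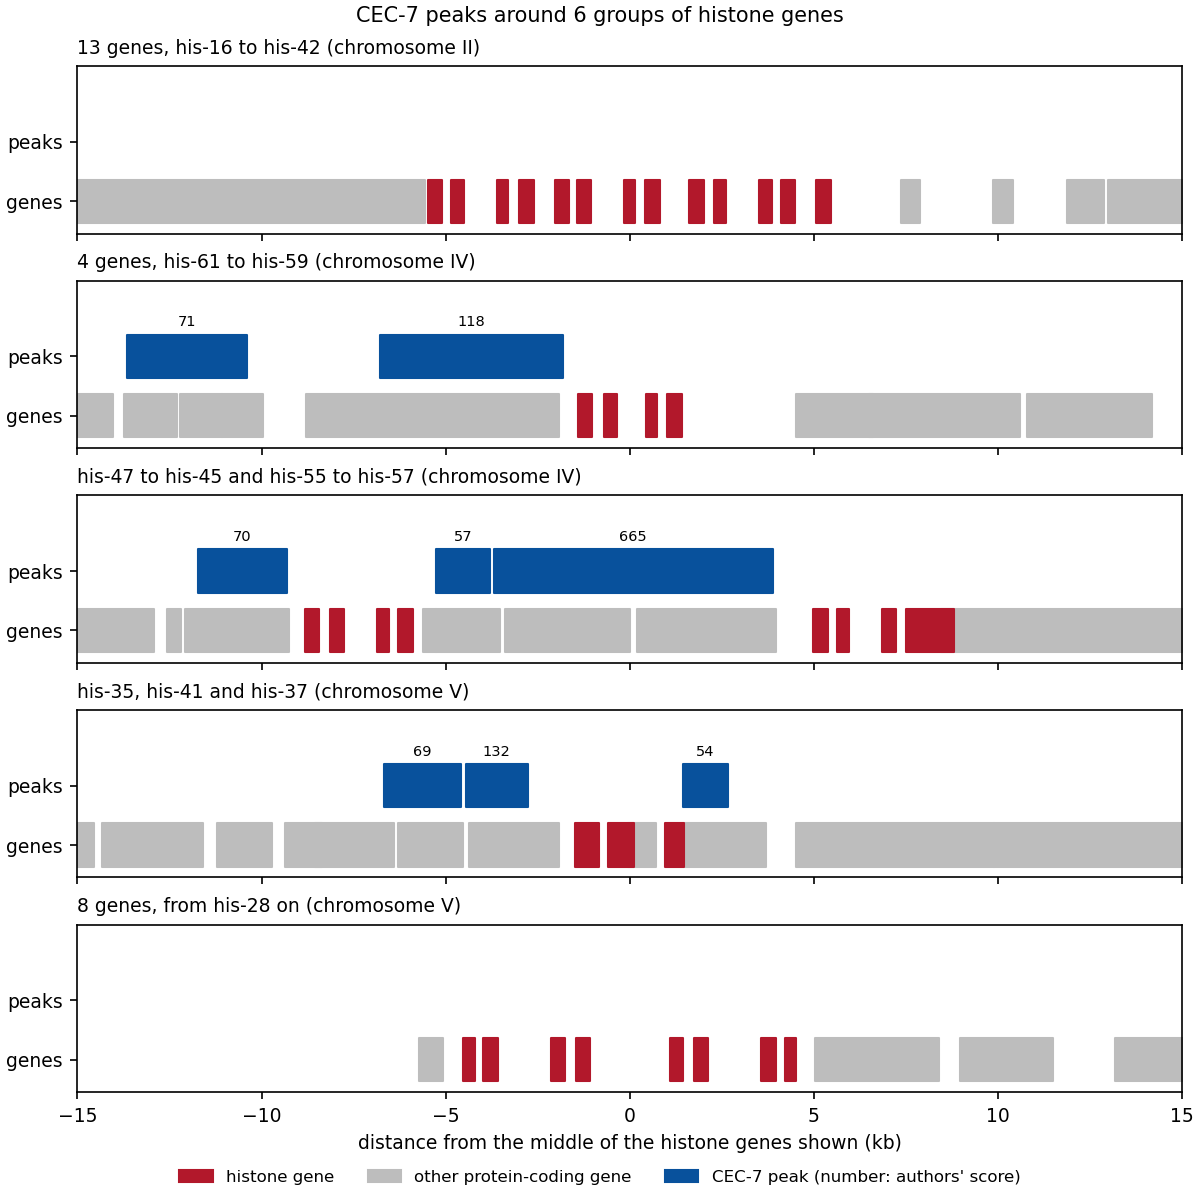
Maps of 6 groups of histone genes in 5 panels, each spanning 15 kb to either side of the middle of the histone genes shown (x axis, kb), with protein-coding genes in the lower row and CEC-7 peaks in the upper row with the authors' score above each. The groups on II and of 8 genes on V have no peak in view, while on IV the peak with a score of 664.65 lies between the groups of his-47 and his-55 and reaches neither.

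Coverage by peaks was measured inside the loci and at rising distance from them. Inside, 22 of 82160 bases lay in peaks, 0.0268%, where the chromosomes, weighted by the same bases, had 6.01%. That background is matched by chromosome alone. Counted by locus, 1 of 28 held a peak base, where genes matched by chromosome and length gave 3.78. How reads that match several histone gene copies were placed is not stated, and the part of this was not tested. In the first 1 kb on either side the coverage was 5.99%, against 5.68% for the chromosomes. It was 12.7% from 1 to 2 kb and 12.3% from 2 to 5 kb, above the 5.68% of the chromosomes. From 5 to 10 kb it was 4.16%, from 10 to 20 kb 6.77% and from 20 to 50 kb 7.75%, against 5.67, 5.70 and 5.77%. Neighbouring bases are not independent, and a few peaks make up each of the nearer values.

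**Figure D5:**
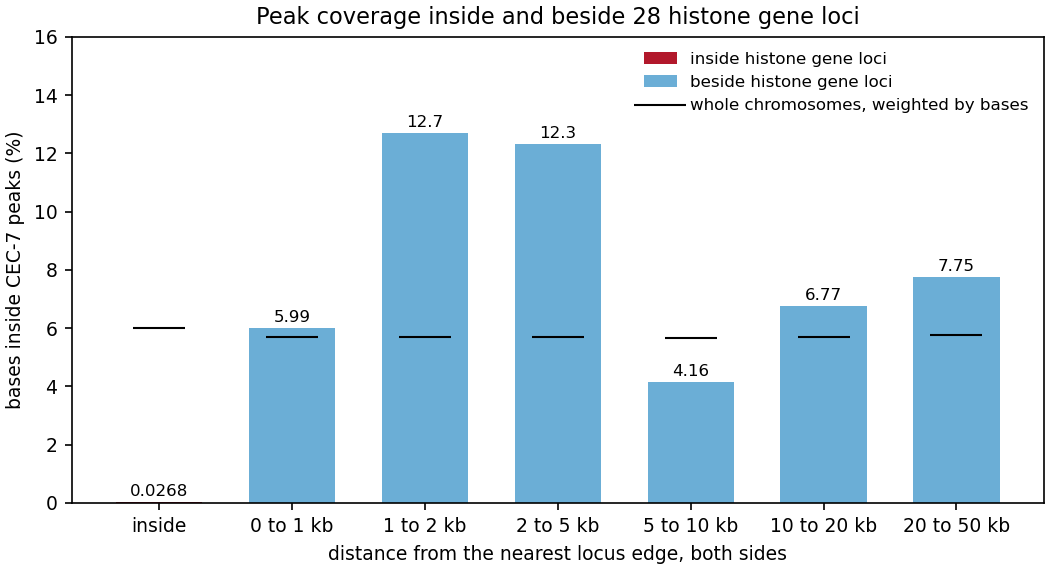
Share of bases inside CEC-7 peaks (y axis, %) within the 28 histone gene loci and in bins of distance from the nearest locus edge (x axis, both sides); the short lines give the share for whole chromosomes weighted by the bases of each bin. Coverage was 0.0268% inside, 5.99% in the first 1 kb and 12.7% from 1 to 2 kb. How reads that match several histone gene copies were placed is not stated.

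Within 50 kb of these loci, non-histone genes were bound more often than other genes on I, II and IV and less often on III. Of the 56 protein-coding genes that flank a locus, 12 were bound, 21.4%, where other genes weighted to the same chromosomes gave 14.6%. These were 4 of 6 on I, 0 of 4 on II, 1 of 4 on III, 6 of 16 on IV, 1 of 18 on V and 0 of 8 on X. Of the 560 within 50 kb, 101 were bound, 18.0%, against 14.1% weighted in the same way. Both backgrounds are matched by chromosome and not by length. Of the 135 genes within 50 kb that are shorter than 1000 bp, 11 were bound, or 8.15%. Other short genes gave 7.41%, but weighted to the chromosomes of the 81 histone genes and not to those of these 135 genes. By chromosome, 39 of 68 genes within 50 kb were bound on I (57.4%, against 29.6% of all other genes). On IV, 34 of 163 were (20.9%, against 16.2%). On II, 8 of 24 were (33.3%, against 21.4%), of which 7 of 12 lay around the lone his-73. Around the group of 13 genes on II, 1 of 12 was bound. On III, 3 of 31 genes within 50 kb were bound (9.68%, against 37.2%), on V 17 of 196 (8.67%, against 8.06%) and on X 0 of 78. The values for I, II and III come from around 3, 2 and 2 loci.

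Genes whose products handle histones were also counted, from a list chosen by name with earlier results of these data known. Of these 26, comprising histone chaperones, the histone mRNA binding protein, centromeric H3 and factors for histone exchange and acetylation, 17 were bound, 65.4%. Other genes of the same chromosomes gave 26.6%, and of the same chromosomes and length classes 27.8%. By chromosome, 6 of 8 were bound on I (against 29.6% of other genes), 3 of 4 on II (21.4%) and 7 of 8 on III (37.2%). On IV it was 1 of 3 (16.2%) and on V 0 of 3 (8.06%). Among the bound genes, lin-53 and rba-1 share 1 peak. The share describes this chosen list only. The members had a median length of 2154 bp, far above that of histone genes, and 16 of 26 lie on I and III, the chromosomes with the largest shares of bound genes. The histone and factor lists were not tested against each other.

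The highest score among them belonged to emb-5 (III 4715147 to 4720571, score 894.99, rank 39), the worm SPT6 and a histone chaperone of transcription. It was followed by hira-1 (III 5196085 to 5200013, 730.34), the chaperone of H3.3. Next was asfl-1 (I 9658160 to 9664700, 548.39), 1 of 2 ASF1 chaperones for H3 and H4. The other, unc-85, had a peak with a score of 191.36 (II 4703176 to 4705477). The peak at cdl-1, the gene of the stem-loop binding protein of histone mRNA, lay at II 10784615 to 10788697 with a score of 209.50.

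The 3 genes of the FACT complex, which moves H2A and H2B dimers, were all bound: spt-16 (score 401.35), hmg-3 (199.09) and hmg-4 (153.20). The neighbouring genes lin-53 and rba-1, for histone-binding WD40 proteins, shared the peak at I 9614885 to 9619847 (421.88), so they count as 1 site. The ATRX gene xnp-1 had a score of 401.48, and ssl-1, an ATPase of the family that exchanges H2A.Z, 493.51. Of the acetylation factors, trr-1 had 392.76, hat-1 148.39 and epc-1 78.16, and ruvb-2 had 110.57. Of the 2 centromeric H3 genes, cpar-1 was bound (III 9433938 to 9438090, 420.56), while hcp-3 lay 1638 bp from a peak. The other unbound genes were chaf-1, chaf-2, nasp-1, nap-1, gfl-1, zhit-1, mys-1 and ruvb-1, the last at 557 bp from a peak.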

How the data were processed

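The deposited file is a list of 2767 peaks of 1 ChIP library, called with MACS on WormBase WS220, per the file headers; BWA and ce10 are named in the submitters' processing notes. The score of each peak is the authors' value as deposited, on an unstated scale. For the MACS settings, the use of the input, read filters and depth, the entry is: not given in the sources used here. Gene names, biotypes and positions came from RefSeq's table for WBcel235, matched for all 81 histone and 26 factor genes. That build was taken to differ from WS220 by about 100 bp at most, which was not checked here. No gene position is printed, and distances carry that error. The table gives no strand, so gene starts were not used. Histone classes came from general knowledge and were set beside gene length: 312 bp in 15 of 16 H4, 384 bp in 15 of 17 H2A and 411 bp in 15 of 15 H3 genes. All bound histone genes, all linker and variant genes, the 5 nearest and 5 farthest other unbound genes and all bound factor genes are named. The factor list was chosen by name. The members and lists were chosen with earlier results of these data known. Shares are descriptions without a test, since members of 1 library are not replicates. Overlaps were checked on simulated data. Tables were handled with pandas 2.3.3 and NumPy 2.4.6 under Python 3.11.15, intervals with SciPy 1.17.1 and plots with matplotlib 3.10.9. Alternatives were other margins, the 50% of peaks with the highest score, other gaps for loci and short genes as background. Shifts of 100 bp, either gene end in place of the gene start, and length classes were chosen after seeing the data.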

Additional observations from a re-analysis of the deposited data

How the results depend on the processing

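The share of histone genes bound, 4.94%, stood against a chromosome-weighted share of other genes of 14.5%, a difference of -9.58 percentage points. The difference was negative in every alternative run, down to -11.6 points with a margin of 400 bp. Most of these runs used other genes of all lengths, so the sign is no result about histone genes as such. It was -2.47 points against other genes shorter than 1000 bp. Against other genes of the same chromosome and length class it was -0.425 points, or 4 bound genes beside 4.34. There, the 65 core genes lay above their background (6.15% against 3.91%) and the 15 linker and variant genes below (0 against 11.6%). Both backgrounds limited by length were run only with the margin of 500 bp and all peaks. The weighted background was 5.36% by chromosome and length class, 7.41% for short genes and 8.62% with the 50% of peaks of highest score. The number of bound histone genes depended on the margin and the score: 1 of 81 (1.23%) and 1 of 28 loci (3.57%) without a margin, where the gene was his-37, and as many with the higher-scoring peaks, where it was his-68. With a margin of 400 bp the count was 2 of 81, and with genes moved 100 bp to either side 3 of 81. The share of all other genes bound was 15.2% without a margin, 15.3% when either gene end stood for the gene, 19.8% with 1000 bp, 11.3% with the higher-scoring peaks and 9.86% for short genes. With the higher-scoring peaks, 0 histone genes had an end inside a peak, against 1 with all peaks. Between 15 and 18 of the 26 factor genes were bound under every setting run. Gene starts could not be used, for want of a strand, and these alternatives were not run. No paired analysis was possible because the ChIP and the input number 1 library apiece and the input has no peak list here. Depth is unknown, and an unbound gene may carry binding too weak for the caller.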
